A study of Mus musculus with 24 samples.

Results

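The comparison described here is night against day in the whole cochlea of the mouse, with noise exposure and adrenal surgery held level. It used all 24 libraries of the series, 12 collected after a night exposure and 12 after a day exposure. Each set of 12 holds 3 libraries from each of 4 strata, which cross noise or sham exposure with adrenalectomy (ADX) or sham operation, and night was compared with day within each stratum before the 4 differences were averaged. All mice were CBA/Sca, aged 12 weeks. Mice labelled adrenalectomized had lost the adrenal glands, the main source of circulating glucocorticoid, and the others had a sham operation. Exposed mice heard a band of noise (6 to 12 kHz) for 1 h at 100 dB SPL, beginning at zeitgeber time (ZT, hours after lights-on) 3 for day and 15 for night, and the unexposed mice had a sham exposure. By the design text the cochleae were taken 2 h past the end of the noise, so at ZT6 and ZT18, but the sample labels read ZT11 and ZT23, and this conflict could not be settled. Mice are active at night. Nothing in the labels states whether libraries of a group are separate animals, and if they are not, the p-values below measure only the spread between these samples.

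Poly-A RNA was counted per gene, with 18894996 to 36108962 counts per library, and 16607 genes had enough counts to test. Hair cell, supporting cell and spiral ganglion genes were present in all libraries, as summed levels of 383 to 590, 1210 to 1830 and 2200 to 3590 CPM (counts scaled to a common library size). Transcripts of the pituitary stood out in night noise ADX a, where growth hormone (Gh) reached 7590 CPM, and cerebellar transcripts in library b of the night noise sham-operated and of the day sham-exposed sham-operated group, with Cbln3 at 33.3 and 38.5 CPM. Glucocorticoid-induced genes did not follow the surgery labels in every library. Fkbp5, a co-chaperone that glucocorticoid induces, measured 27.5 to 43.9 CPM in the 6 unexposed libraries labelled ADX, but 56.0, 61.1 and 68.2 CPM in the 3 day noise libraries labelled ADX and 87.6 CPM in night noise ADX a, against 41.7 to 132 CPM in the sham-operated libraries. Below, ADX is the label of a library and not a measured state.

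The circadian clock of mammalian cells is a feedback loop of transcription. BMAL1 (encoded by Arntl) pairs with CLOCK or NPAS2 and activates genes through E-boxes, among them the Period and Cryptochrome genes, whose proteins return to block the activators. A second loop sets the level of Arntl: the REV-ERB receptors (Nr1d1, Nr1d2) repress it and the ROR receptors activate it at the same DNA element. Another group, the D-box factors, carries the rhythm to other genes, with DBP, TEF and HLF as activators and NFIL3 as a repressor. The cochlea is known to hold such a clock, in which PER2 protein oscillates in explants.

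Night and day differed in many genes by small amounts. In edgeR's quasi-likelihood test, 998 genes passed an adjusted p of 0.05, which is 6.01% of those tested. Of these, 625 were higher at night (3.76% of genes tested) and 373 were lower (2.25%), and 539 and 320 of them had the same sign in all 4 strata. The median log2 difference, night minus day, was 0.183 among the genes called higher and -0.217 among those called lower, against -0.00171 over all genes. Differences of over 2-fold were rare, with 7 genes higher and 8 lower. When each library was left out in turn, 611 of the 998 genes passed in all 24 fits, 387 of them higher and 224 lower. In a bulk sample, fewer cells of a type and less RNA per cell cannot be told apart.

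Many clock genes differed by time: 13 of the 25 members tested passed, 7 higher and 6 lower at night, against 6.01% of all genes. The gene lists here and below were chosen with earlier results of these data known. Their shares therefore describe the listed genes and are not independent support. Levels below are given as the lowest, median and highest of 12 libraries. Nr1d1, the REV-ERB alpha receptor (GRCm38 chromosome 11, 98767932 to 98775333, minus strand), stood at 83.5, 126 and 146 CPM by day and at 22.0, 40.2 and 52.9 CPM at night. Every night library lay below every day library. The pooled log2 difference was -1.70 (SE 0.07, adjusted p = 1.42e-11), a level 3.24-fold higher by day, the smallest adjusted p of any gene tested. Its relative Nr1d2 moved the same way by less, from 112, 137 and 162 CPM to 97.4, 116 and 135 CPM, with overlapping groups and a difference of -0.22 (SE 0.06, adjusted p = 0.0327). With 1 library left out the call held in 13 of 24 fits, and its adjusted p reached 0.0617. Of the ROR receptors, Rora and Rorb did not pass. Nr1d1 shares DNA with Thra, the thyroid hormone receptor alpha gene on the opposite strand, which was also lower at night (-0.24, SE 0.04, adjusted p = 0.000289), and the strand setting of the counting is not given in the sources used here, so reads of the overlap cannot be told apart.

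Among the 12 Period and Cryptochrome repressors and their modifiers, 4 were higher at night, 1 was lower and 7 did not pass. Cry1 (chromosome 10, 85131700 to 85185064, minus strand), the repressor of the late phase of the loop, measured 15.2, 18.1 and 21.4 CPM by day and 23.8, 32.8 and 38.5 CPM at night. No night library reached down to a day library. Its difference was 0.78 (SE 0.06, adjusted p = 4.33e-08), or 1.71-fold. Per2 (chromosome 1, 91415982 to 91459324) rose from 32.9, 45.8 and 67.8 CPM to 59.4, 99.6 and 134 CPM, by 0.98 (SE 0.12, adjusted p = 5.68e-05), and Per3 from 50.6, 63.5 and 114 CPM to 81.8, 94.2 and 116 CPM, by 0.44 (SE 0.07, adjusted p = 0.000483). The high day values of Per3 came from the 3 unexposed ADX libraries, where day and night did not separate. Csnk1e, the casein kinase 1 epsilon that marks PER proteins for turnover, was higher by 0.14 (adjusted p = 0.00462), and Bhlhe40, a repressor that competes at E-boxes, was lower by night (-0.17, adjusted p = 0.0276, passing in 22 of 24 fits without 1 library). Per1, which glucocorticoid and other signals induce directly, showed no such separation: it ran from 45.6 to 127 CPM by day and from 47.7 to 124 CPM at night, with a difference of -0.06 (SE 0.12, adjusted p = 0.812). Cry2 had a difference of 0.09 (adjusted p = 0.142), Bhlhe41 an adjusted p of 0.992, and Gm129, the older name of Ciart, a difference of -0.23 (adjusted p = 0.0928).

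Of the 4 genes on the activating side, Npas2 and Arntl were lower at night and Clock did not pass (0.04, adjusted p = 0.582). Npas2, which can replace CLOCK, ran through 6.05, 8.60 and 17.7 CPM by day and 4.38, 7.11 and 9.18 CPM at night, a difference of -0.44 (SE 0.09, adjusted p = 0.0046). Arntl ran through 13.2, 19.7 and 24.3 CPM and 13.8, 16.04 and 20.6 CPM, a difference of -0.22 (SE 0.06, adjusted p = 0.0277), and it passed in 18 of 24 fits without 1 library. Both rested on the sham-operated strata. Npas2 differed by -1.06 and -0.85 in unexposed and noise-exposed sham-operated libraries and by 0.12 and 0.03 in the libraries labelled ADX, and in the 12 ADX libraries alone the pooled values were 0.07 for Npas2 and 0.01 for Arntl. The test of that difference between surgeries gave 1.03 (SE 0.18) for Npas2 with an adjusted p of 0.164 in edgeR and 0.000505 in DESeq2.

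The D-box factors split. Dbp, an activator that follows BMAL1 closely (chromosome 7, 45705088 to 45710203), fell from 43.0, 50.3 and 72.8 CPM to 23.8, 30.8 and 50.3 CPM, by 0.73 on the log2 scale (adjusted p = 2.62e-05). The ranges met, but day exceeded night without overlap within each of the 4 strata. Tef, another activator, was higher at night, at 143, 161 and 222 CPM by day and 178, 200 and 238 CPM at night (0.23, SE 0.05, adjusted p = 0.00665), and so was the repressor Nfil3 (0.30, SE 0.07, adjusted p = 0.00845). In unexposed ADX libraries Tef did not separate, at 217, 199 and 222 CPM by day and 218, 200 and 201 CPM at night. Neither Tef nor Nfil3 passed in the 12 ADX libraries alone (adjusted p = 0.532 and 0.578 in edgeR). Hlf did not pass (0.09, adjusted p = 0.401). Dbp overlaps Sphk2, a sphingosine kinase gene, which was higher at night by 0.12 (adjusted p = 0.0226).

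**Figure D1:**
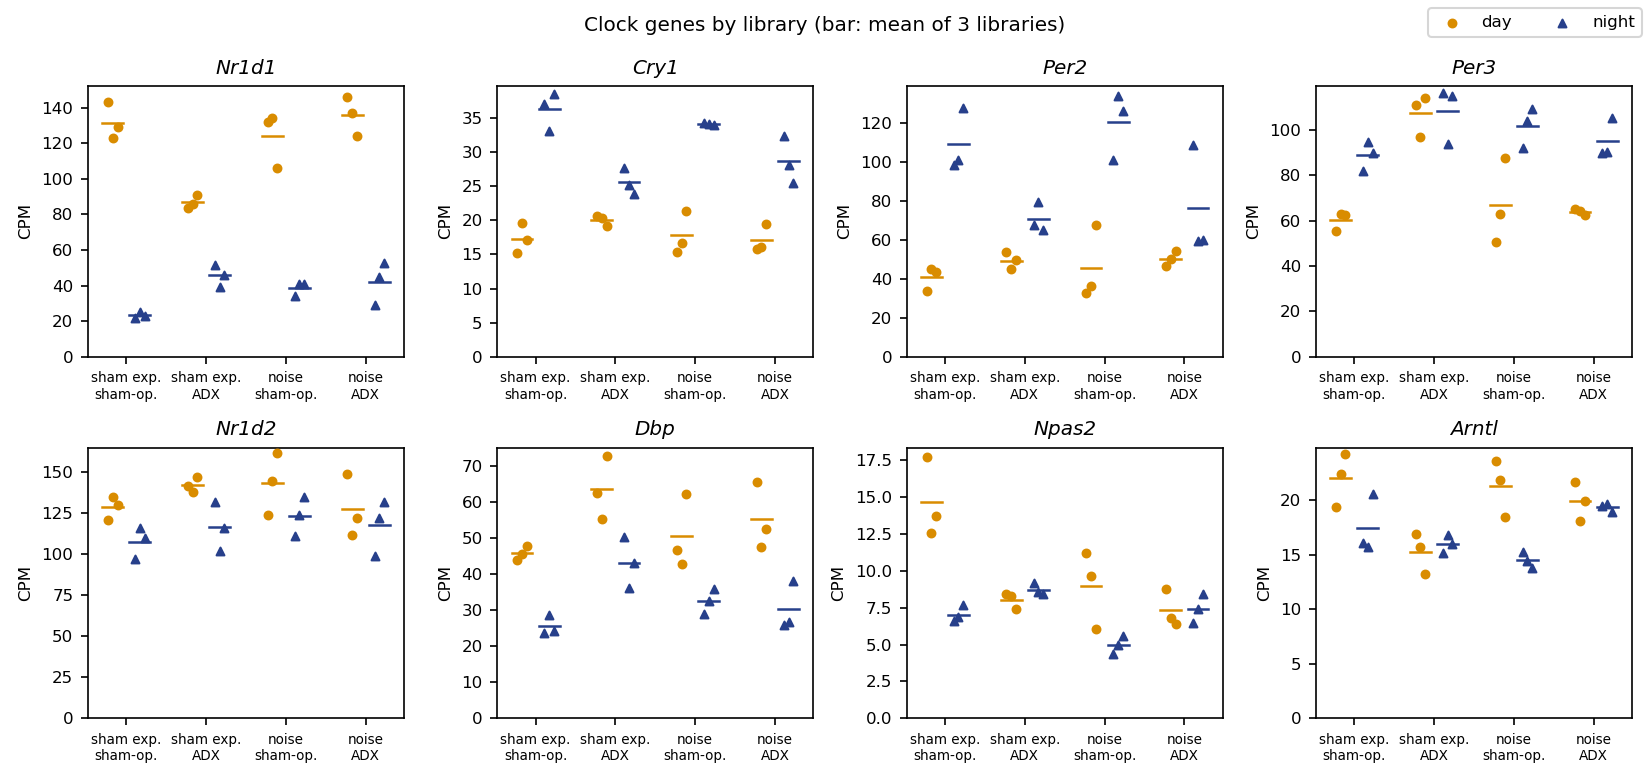
Level of 8 clock genes in CPM (vertical axes, from 0) in every library, by stratum (horizontal axes: sham exp., sham exposure; sham-op., sham-operated) and time (orange circles, day; blue triangles, night; bars, mean of 3 libraries). Nr1d1 is lower at night in all 4 strata, by least in unexposed ADX libraries, and Cry1 is higher at night in all 4. Npas2 separates in both sham-operated strata, and Arntl only in the noise-exposed sham-operated stratum.

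Short stretches of promoter show where the clock's DNA elements lie at the 2 clock genes whose 12 night and 12 day libraries did not overlap. They come from RefSeq (GRCm38.p6) and are written 5′ to 3′ on the strand of the gene. Capitals mark the E-box CACGTG or its variant CACGTT, on either strand. The Cry1 stretch (chr10:85185079-85185163, minus strand) holds both, beginning 60 and 79 bases before the start, and the Nr1d1 stretch (chr11:98775378-98775435, minus strand) holds the variant 28 bases before it.
Cry1: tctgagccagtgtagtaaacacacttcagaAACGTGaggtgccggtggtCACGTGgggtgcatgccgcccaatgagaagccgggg
Nr1d1: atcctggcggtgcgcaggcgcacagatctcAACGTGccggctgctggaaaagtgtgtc
Such letters are common. In the 250 bases before the start, CACGTG was present in 9.2% of the 12068 tested genes with a promoter in the table, in 8.13% of those called higher at night and in 10% of those called lower. It was present in 4 of 19 clock genes (Bhlhe41, Cry1, Per1 and Tef), and CACGTT in 4 of 19 (Cry1, Cry2, Nr1d1 and Rorb) against 5.06% of all. A match is a description of these letters and not of binding.

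Of 16 genes known as rhythmic outputs of clocks in other tissues, 6 were higher at night and 1 was lower (43.8% of the list, against 6.01% of all genes). Fmo2, a flavin monooxygenase, went from 6.09, 8.12 and 11.7 CPM to 9.67, 17.99 and 29.99 CPM, 1.97-fold (log2 0.98, SE 0.12, adjusted p = 5.47e-05). Cys1, a protein of cilia, went from 6.45, 8.39 and 11.8 CPM to 11, 12.8 and 14.3 CPM (0.54, adjusted p = 9.41e-05), and Lonrf3, a RING-finger protein, rose by 0.45 (adjusted p = 2.68e-05). The groups of both overlapped at their edges. Por, the reductase that serves cytochromes P450, Wee1, the kinase that holds back mitosis, and the tetraspanin Tspan4 were higher by 0.13, 0.14 and 0.15 in that order, and the transcription factor Klf10 was lower, with a difference of -0.30. Por passed in 14 and Wee1 in 23 of the 24 fits without 1 library. Among genes on no list, Gm19522 (chromosome 16, 42884370 to 42912065) had the highest log2 difference of the genes named here. Its levels were 0.841, 1.67 and 3.05 CPM by day and 4.12, 5.08 and 5.99 CPM at night, without overlap and 2.92-fold apart (1.54, SE 0.11, adjusted p = 1.4e-08). It lies within Zbtb20, which encodes a zinc-finger repressor on the other strand and whose own level did not pass (-0.17, adjusted p = 0.226).

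The 12 night libraries lay wholly apart from the 12 day libraries in 12 genes, 0.0723% of those tested, with 6 higher (0.0361%) and 6 lower (0.0361%) at night. The higher genes were Cry1, Gm19522, Calr, Fgf23, Oat and Slc12a4, and the lower genes were Nr1d1, Lpl, Tcap, Hist1h1c, Nqo1 and 2210408I21Rik. Oat, ornithine aminotransferase, and Slc12a4, a potassium chloride cotransporter, differed by little: Oat went from 243, 258 and 270 CPM to 274, 284 and 307 CPM (0.16, SE 0.03, adjusted p = 0.000627), and Slc12a4 rose by 0.19 (adjusted p = 0.000681). The spread within each group was narrow in these 2 genes. Hist1h1c, a linker histone, fell from 80.7, 88.3 and 109 CPM to 57.9, 65.4 and 76.9 CPM (-0.42, SE 0.04, adjusted p = 1.95e-06), and Nqo1, a quinone reductase, from 13.6, 14.8 and 17.5 CPM to 10.3, 12.3 and 13.4 CPM (-0.31, adjusted p = 0.000401). Under the looser rule of no overlap within each of the 4 strata, in the same direction, there were 66 genes (0.397%), 45 higher and 21 lower.

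Of 17 genes that fold proteins in the endoplasmic reticulum (ER), 11 were higher at night and 0 lower (64.7% of the list against 6.01% of all genes), and the median log2 difference of the list was 0.207. This list too was chosen with earlier results known, so its share is not independent support. Calr, calreticulin, a calcium-binding chaperone for glycoproteins (chromosome 8, 84841850 to 84846934, minus strand), stood at 700, 747 and 847 CPM by day and 861, 959 and 1032 CPM at night. The groups did not overlap, and the difference was 0.33 (SE 0.03, adjusted p = 7.78e-06), or 1.25-fold. Hsp90b1, the ER member of the HSP90 family also called GRP94, went from 826, 916 and 1089 CPM to 1026, 1176 and 1265 CPM (0.32, SE 0.04, adjusted p = 9.93e-05), and Pdia6, a disulfide isomerase, from 202, 214 and 251 CPM to 248, 276 and 311 CPM (0.32, SE 0.04, adjusted p = 2.68e-05). For both, a few libraries overlapped across strata but none within a stratum. Pdia3 and Pdia4, of the same enzyme family, rose by 0.25 and 0.23, Sdf2l1 by 0.29, Creld2 by 0.26, Hyou1 by 0.21, Hspa5 (BiP) by 0.21, Dnajb11 by 0.15 and the lectin chaperone Canx by 0.11. Hspa5 passed in 16 of 24 fits without 1 library. Manf (0.16, adjusted p = 0.073) and Dnajc3 (0.11, adjusted p = 0.0754) did not pass, and the transcription factors of the ER stress response, Xbp1, Atf4 and Ddit3, had differences of 0.06, 0.03 and 0.03 (adjusted p from 0.33 to 0.79). The count was 11 without the 3 libraries that held pituitary or cerebellar transcripts, 11 without the noise-exposed ADX stratum, and 1 in the 12 ADX libraries alone. Over all genes these fits called 669, 946 and 46 in that order, against 998 in the main fit. The list's median difference was 0.317 in noise-exposed and 0.208 in unexposed sham-operated libraries. In ADX libraries it was 0.0549 with noise and 0.196 without. Hsp90b1 overlaps 1810014B01Rik and Pdia6 overlaps Atp6v1c2; both neighbours were far lower in CPM and neither passed.

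The promoters of several of these genes carry the ER stress element, which reads CCAAT and CCACG with 9 bases of any kind between them. It was the rarest of the elements searched, found on either strand in the 250 bases before the start of 20 of the 12068 genes (0.166%). These included 8 of the 455 called higher at night (1.76%) and 0 of the 269 called lower. The 8 are Calr, Canx, Creld2, Derl3, Hsp90b1, Hspa5, Pdia6 and Zfp57. All but Derl3 and Zfp57 are on the list of folding genes above, so this share counts those genes again. The heat-shock element was in 0.44% of genes called higher and 0.472% of all genes. For the ROR receptor element the shares were 0.22% and 0.307%, and for the D-box 1.76% and 0.845%. Capitals mark the ER stress element, with 30 bases on each side, 5′ to 3′ on the strand of the gene (RefSeq, GRCm38.p6). The Hsp90b1 stretch holds fewer after its last element, because it stops where the gene starts. Calr is at chr8:84847045-84847123 (minus strand), Hsp90b1 at chr10:86705510-86705686 (minus), Pdia6 at chr12:17266461-17266539 (plus), Creld2 at chr15:88819490-88819568 (plus), Canx at chr11:50325770-50325848 (minus) and Derl3 at chr10:75893212-75893290 (plus).
Calr: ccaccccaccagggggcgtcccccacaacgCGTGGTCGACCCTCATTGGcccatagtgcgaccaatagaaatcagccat
Hsp90b1: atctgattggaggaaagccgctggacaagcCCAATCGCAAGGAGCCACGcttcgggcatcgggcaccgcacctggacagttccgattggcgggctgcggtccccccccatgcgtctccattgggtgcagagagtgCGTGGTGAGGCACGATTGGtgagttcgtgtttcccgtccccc
Pdia6: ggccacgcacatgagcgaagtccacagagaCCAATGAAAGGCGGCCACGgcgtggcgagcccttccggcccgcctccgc
Creld2: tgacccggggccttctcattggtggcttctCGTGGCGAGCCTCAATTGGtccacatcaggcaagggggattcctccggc
Canx: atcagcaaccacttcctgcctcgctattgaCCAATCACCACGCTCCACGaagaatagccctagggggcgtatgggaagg
Derl3: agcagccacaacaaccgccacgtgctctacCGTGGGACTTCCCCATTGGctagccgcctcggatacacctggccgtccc
The Hsp90b1 promoter holds 2 copies, in opposite directions. The element reads in reverse in Calr, Creld2 and Derl3. Derl3, which takes part in ER-associated degradation and was on no list, went from 3.85, 4.88 and 6.72 CPM to 5.21, 7.69 and 9.30 CPM (0.59, SE 0.08, adjusted p = 9.63e-05). Of the 15 listed folding genes with a promoter in the table, 7 held the element, and 6 of these 7 were called higher, the exception being Dnajc3. Of the whole list 64.7% were called higher. Dnajb11, Hyou1, Pdia3, Pdia4 and Sdf2l1 were called without being among the 20 genes found with the element. The other 12 of the 20 were not called, with differences from -0.36 for Xlr3b to 0.11 for Dnajc3. Alg12, which shares the Creld2 promoter on the other strand, was among them (-0.05, adjusted p = 0.571).

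Of 21 heat-shock and cytosolic chaperone genes, 8 were higher at night, 0 were lower and 13 did not pass (38.1% of the list called, against 6.01% of all genes). The median difference of the list was 0.166, and by stratum it was 0.386 in noise-exposed and 0.203 in unexposed sham-operated libraries, 0.112 in unexposed ADX libraries and -0.0107 in noise-exposed ADX libraries. Hspb1, a small heat-shock protein (chromosome 5, 135887919 to 135889563), went from 49.7, 80.0 and 130 CPM to 83.1, 139 and 184 CPM (0.63, SE 0.11, adjusted p = 0.00241). Its night levels separated from day in 3 strata, while in the noise-exposed ADX stratum night measured 162, 91.7 and 84.7 CPM in a, b and c and day 94.9, 100 and 118 CPM. Hsp90ab1, the constitutive HSP90, went from 1669, 1879 and 2287 CPM to 2074, 2382 and 2684 CPM (0.29, adjusted p = 0.00185), Hspa4l rose by 0.34 (adjusted p = 0.000196), and Hspa8 and Hsp90aa1 by 0.24 and 0.23. The HSP90 co-chaperones Fkbp4, Ahsa1 and Stip1 rose by 0.23, 0.20 and 0.19. Without 1 library, Hspa8 passed in 15 of 24 fits, and Hsp90aa1 and Stip1 in 10 each. The heat-inducible Hspa1a and Hspa1b, near-identical copies whose reads cannot be assigned with certainty, had differences of -0.16 and -0.09 and did not pass (adjusted p = 0.73 and 0.87). Cryab, alpha B-crystallin, a small heat-shock protein outside the list, went from 221, 240 and 269 CPM to 263, 308 and 357 CPM (0.35, SE 0.03, adjusted p = 3.03e-06) with no overlap within any stratum. Cryab shares sequence with Hspb2, which measured 2.25 to 5.17 CPM and did not pass. Fits of the sham-operated and of the ADX libraries alone called 394 and 46 genes in all, with 8 and 0 of them on this list. The list count ran from 5 to 10 when 1 library was left out. It was 5 without any one of day sham-exposed sham-operated a or c, night sham-exposed sham-operated c, day or night sham-exposed ADX b, day noise-exposed sham-operated a or b, night noise-exposed sham-operated b, or night noise-exposed ADX a.

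Rbm3 and Cirbp, RNA-binding proteins that rise on cooling, were lower at night. Rbm3 (chromosome X, 8138975 to 8145880) fell from 137, 167 and 230 CPM to 99.8, 124 and 138 CPM, with a difference of -0.55 (SE 0.05, adjusted p = 3.84e-07), and a single night value reached into the day range. Cirbp fell from 53.3, 63.1 and 78.4 CPM to 37.4, 46.1 and 60.9 CPM (-0.45, SE 0.08, adjusted p = 0.00123). Of the 16 genes on that list, which also holds SR splicing regulators and their kinases, 4 were lower and 3 higher (43.8%, against 6.01% of all genes). The splicing factor Tra2b was lower (-0.19), while Tra2a, the kinase Clk1, which phosphorylates SR proteins, and Khdrbs3, a splicing regulator, were higher by 0.15, 0.20 and 0.25. Tra2a passed in only 10 of 24 fits without 1 library.

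**Figure D2:**
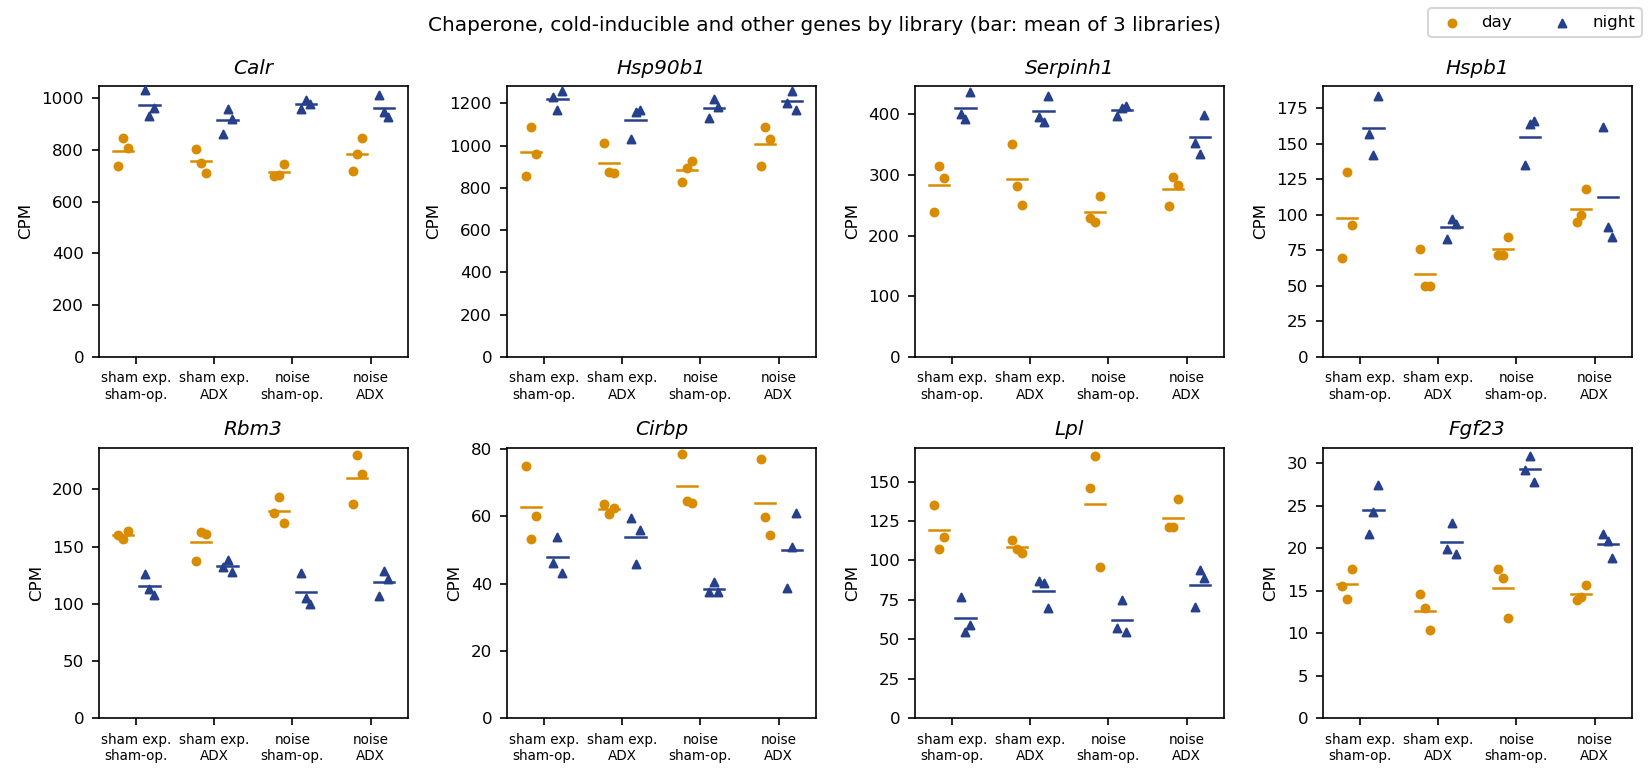
Level in CPM (vertical axes, from 0) of 8 genes in every library, by stratum and time (orange circles, day; blue triangles, night; bars, mean of 3 libraries). The chaperones Calr, Hsp90b1, Serpinh1 and Hspb1 and the hormone gene Fgf23 are higher at night, and Rbm3, Cirbp and Lpl are lower. Hspb1 and Cirbp do not separate in the noise-exposed ADX stratum. Cirbp also overlaps in the unexposed sham-operated stratum, and Rbm3 in the unexposed ADX stratum.

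Of 16 fasting and fatty acid oxidation genes, 5 were lower at night, 1 was higher and 10 did not pass, against 2.25% of all genes lower and 3.76% higher. Lpl, lipoprotein lipase, which frees fatty acids from circulating triglyceride (chromosome 8, 68880491 to 68907448), fell from 95.6, 118 and 166 CPM to 54.6, 72.9 and 93.9 CPM. The groups did not overlap, and the difference was -0.76 (SE 0.09, adjusted p = 2.68e-05), 1.69-fold higher by day. Angptl4, a fasting-induced inhibitor of that lipase, went from 26.2, 39.5 and 45.5 CPM to 15.6, 25.3 and 34.9 CPM (-0.59, SE 0.09, adjusted p = 0.000324), and Cd36, a fatty acid transporter, from 46.8, 57.1 and 79.4 CPM to 32.1, 42.9 and 68.2 CPM (-0.38, adjusted p = 0.0177). Within each stratum Angptl4 was lower at night without overlap. Cpt1a, which admits fatty acids to mitochondria, and Txnip, which is regulated by glucose, differed by -0.15 and -0.17, and G0s2, an inhibitor of fat breakdown in cells, was higher by 0.43 (adjusted p = 2.68e-05). Each of these 6 passed in all 24 fits without 1 library. On the building side, 3 of 15 cholesterol genes were higher (20.0%, against 3.76% of all genes), among them Cyp51, the sterol demethylase of the pathway, by 0.155. On the list of 10 fatty acid synthesis genes only Pnpla3 passed (0.29, adjusted p = 0.00478), 10% against 6.01% of all genes. The synthesis enzymes Fasn, Acaca and Acly did not pass, and the median difference of the list was -0.00983.

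Matrix and secreted proteins gave some of the larger single differences. Serpinh1 (HSP47), the ER chaperone of collagen, went from 222, 273 and 351 CPM to 335, 398 and 436 CPM (0.54, SE 0.06, adjusted p = 5.91e-06), separated in each stratum. P4ha1, which hydroxylates collagen, was higher by 0.30 and Col6a1 was lower (-0.26). The other 13 of 16 collagen and matrix genes did not pass (18.8% of the list called, against 6.01% of all genes). Fgf23, a hormone of bone that controls phosphate (chromosome 6, 127072902 to 127081408), rose from 10.4, 14.4 and 17.6 CPM to 18.8, 22.3 and 30.8 CPM (0.69, SE 0.07, adjusted p = 2.12e-06), without overlap. Ctsk, the collagenase of osteoclasts, rose by 0.50 (adjusted p = 0.00167), and the bone genes Mepe and Alpl by 0.27 and 0.22, which made 3 of 14 bone markers (21.4%, against 6.01% of all genes). Alpl passed in only 5 of 24 fits without 1 library, with adjusted p up to 0.0789. The summed level of those 14 ran through 4570, 5490 and 7100 CPM by day and 5330, 6130 and 6860 CPM at night, and its part in the Fgf23 result was not tested. Mmp3, a matrix metalloproteinase, was low throughout, at 0.772, 1.23 and 2.14 CPM by day and 0.116, 0.566 and 1.37 CPM at night (-1.31, SE 0.20, adjusted p = 0.000356).

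Tcap, which anchors titin in striated muscle, was lower at night. It measured 7.15, 8.83 and 11.6 CPM by day and 2.74, 4.27 and 6.80 CPM at night, without overlap (-1.002, SE 0.12, adjusted p = 4.7e-05). Within the strata the difference ran from -1.11 to -0.87. The 13 skeletal muscle markers had a median difference of -0.532, but a wide spread between libraries: 12 did not pass, with Myh1 at -1.93 (adjusted p = 0.3) and Ckm at -1.37 (adjusted p = 0.35), and Actn3 was higher (0.45, SE 0.08, adjusted p = 0.0012). Their summed level was 108, 151 and 258 CPM by day and 126, 149 and 221 CPM at night, and its part in the Tcap result was not tested. Slc6a2, the noradrenaline transporter of sympathetic fibres, was low but higher at night, from 0.446, 0.865 and 1.58 CPM to 0.818, 1.59 and 2.34 CPM (0.77, SE 0.14, adjusted p = 0.00175). Fabp7, a fatty acid-binding protein of glia, fell from 5.97, 8.39 and 11.7 CPM to 2.85, 4.73 and 8.42 CPM (-0.81, SE 0.15, adjusted p = 0.00305).

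None of 26 immediate early genes passed in edgeR (2 at an unadjusted p under 0.05, 2 in DESeq2 and 1 in limma voom). Fos, a subunit of AP-1, ranged from 7.78 to 101 CPM by day and from 5.61 to 122 CPM at night, with a difference of -0.08 (SE 0.21, adjusted p = 0.867), and its estimate changed sign with the strata used. The list's median difference was 0.59 in noise-exposed sham-operated and -0.217 in noise-exposed ADX libraries, and -0.0657 and -0.0142 in the unexposed sham-operated and ADX libraries, so the pooled value averages strata of opposite sign. Likewise 0 passed of 13 chemokines and cytokines (3 unadjusted), of 13 interferon-stimulated genes (0 unadjusted), of 10 neurotrophins and receptors (0 unadjusted) and of 16 cell cycle genes (0 unadjusted), and DESeq2 and limma voom called 0 in these 4 lists. The chemokine and cytokine medians also had opposite signs, 0.435 in noise-exposed sham-operated and -0.176 in noise-exposed ADX libraries. Bdnf, a neurotrophin of hair cells and neurons, had a difference of 0.25 (SE 0.13, adjusted p = 0.261).

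Of 26 glucocorticoid-induced genes, 3 were higher at night and Angptl4, described above, was lower (15.4% of the list, against 6.01% of all genes). Tsc22d3 (GILZ), an anti-inflammatory mediator, went from 77.9, 101 and 126 CPM to 79.6, 146 and 181 CPM (0.33, SE 0.09, adjusted p = 0.0327), Tgm2, a transglutaminase, rose by 0.22 and the metallothionein Mt1 by 0.21 (adjusted p = 0.047). Fkbp5 differed by 0.24 (SE 0.16, adjusted p = 0.403) and Sgk1 by 0.06 (adjusted p = 0.639). The count depended on the libraries used, as did the number of genes called in all, 998 in the main fit. In the 12 sham-operated libraries alone 9 of 394 called genes were members, and in the 12 ADX libraries 1 of 46. Both numbers were lower in ADX libraries, so 9 against 1 does not show a difference particular to this list. Without the noise-exposed ADX stratum 8 of 946 were members, and 2 of 669 when the 3 with pituitary or cerebellar transcripts were left out. Tsc22d3 passed in 15 of the 24 fits without 1 library and Mt1 in 5.

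**Figure D3:**
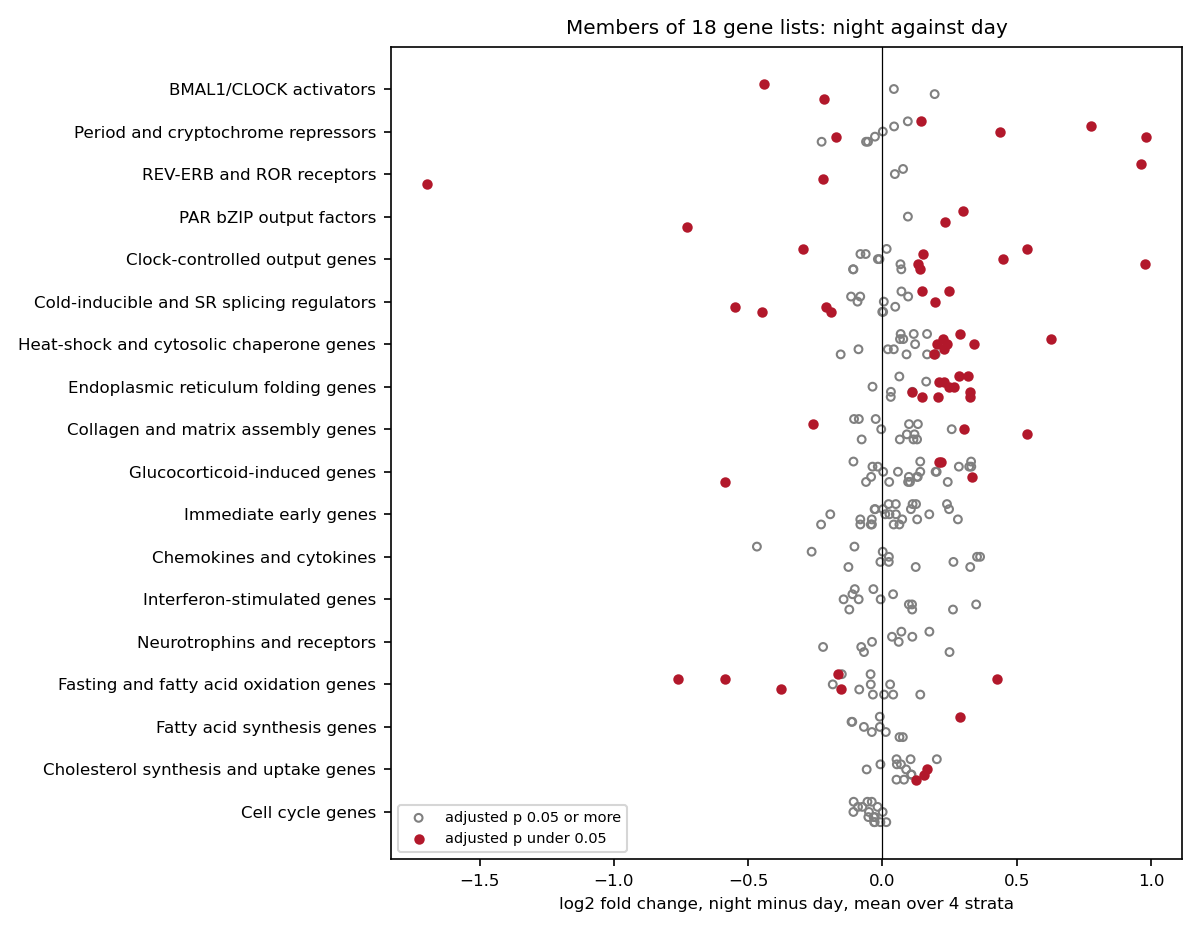
Pooled log2 difference, night minus day, of every tested member of the 18 process lists (horizontal axis; filled red, adjusted p under 0.05; open grey, not past the threshold). The 11 called ER folding genes and the 8 called heat-shock genes lie to the right of 0, 5 of the 6 called fasting genes lie to the left, and no immediate early, chemokine, interferon, neurotrophin or cell cycle gene is filled.

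Among 172 members of 16 marker lists, for cell types of the cochlea and for bone, blood, muscle, immune, pituitary and cerebellar tissue and sex, 14 passed (8.14%, against 6.01% of all genes). Of these lists 9 held none, while macrophages (36.4%), stria vascularis (23.1%) and bone (21.4%) had higher shares. Hair cell markers had 0 of 15 past the threshold in edgeR, DESeq2 and limma voom (3 at an unadjusted p under 0.05). In the stria vascularis, which makes the endocochlear potential, Kcne1, a potassium channel subunit, and Bsnd, a chloride channel subunit, were lower (-0.19 and -0.29) and Esrrb was higher (0.16). These 3 of 13 became 1 without the 3 libraries with pituitary or cerebellar transcripts. Among 11 macrophage markers, Cx3cr1, the fractalkine receptor, went from 30.5, 33.2 and 40.7 CPM to 23.97, 27.7 and 35.2 CPM (-0.25, SE 0.05, adjusted p = 0.00296), Mrc1 and Aif1 differed by -0.25 and -0.30, Cd14 was higher (0.21, adjusted p = 0.0365), and the other 7, Csf1r and Cd68 among them, did not pass. Prox1 of supporting cells, Tubb3 of neurons and Cd3g of T cells were higher. Several calls were lost in some fits without 1 library: Kcne1 passed in 18 of 24, Cd14 and Cd3g in 10 each, Esrrb and Tubb3 in 9 each, and Prox1 in 6.

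The 4 strata allowed a test of whether the effect of time itself differed. Among strata, 2 genes passed (0.012% of genes tested, 1757 at an unadjusted p under 0.05), Nr1d1 and Khdrbs3. The log2 difference of Nr1d1 was -2.50 (SE 0.16) in unexposed sham-operated libraries, -0.92 (SE 0.15) in unexposed ADX libraries, and -1.68 (SE 0.15) in both noise-exposed strata (adjusted p = 0.038 for unequal differences). In unexposed sham-operated libraries it measured 143, 123 and 129 CPM by day and 22.0, 25.0 and 22.7 CPM at night, and in unexposed ADX libraries 83.5, 85.9 and 90.9 CPM by day and 51.6, 39.5 and 46.2 CPM at night. The ADX libraries were thus lower by day and higher at night. With the noise-exposed ADX stratum left out, an alternative chosen after seeing the data, the unexposed contrast of ADX and sham operation was 1.58 for Nr1d1 (SE 0.15, adjusted p = 0.000139). Khdrbs3 was higher at night in 3 strata, by 0.36 without noise and by 0.27 and 0.48 with it (adjusted p = 0.038 for unequal differences). In unexposed ADX libraries its estimate was negative (-0.12, SE 0.06), with day at 21.0, 20.1 and 19.4 CPM and night at 19.0, 18.4 and 18.5 CPM. Without 1 library, Nr1d1 passed this test in 6 of 24 fits, with adjusted p from 0.00028 to 0.287, and Khdrbs3 in 4, from 0.0335 to 0.287.

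**Figure D4:**
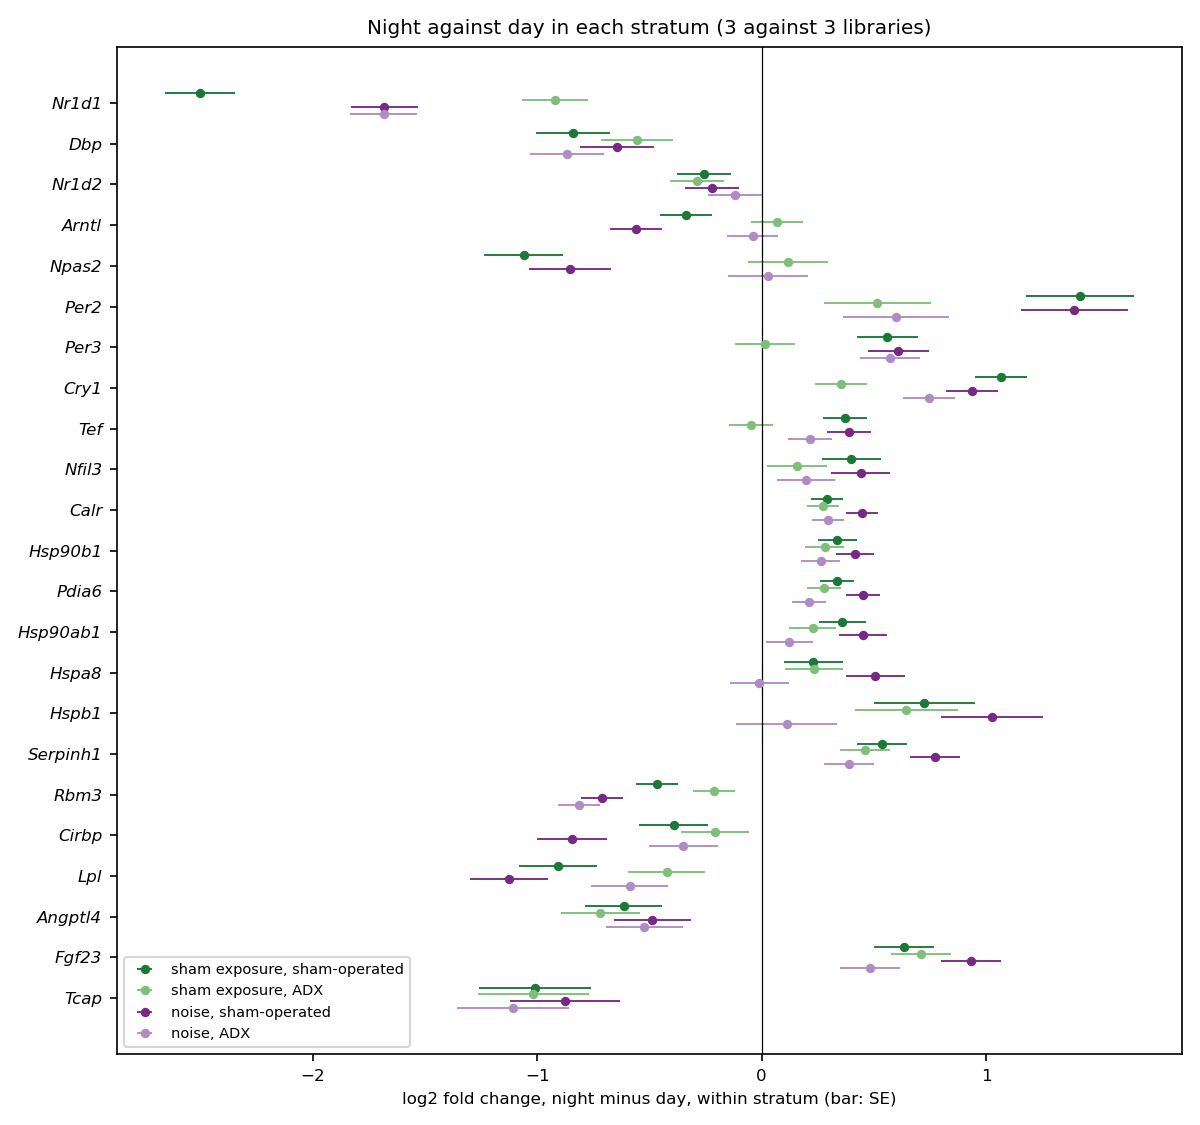
Log2 difference, night minus day, within each of the 4 strata (points; bars, SE; 3 against 3 libraries) for clock, chaperone and other named genes. The points of Calr, Angptl4 and Tcap lie close together, whereas those of Nr1d1 run from -2.50 to -0.92 and those of Npas2 fall in 2 sets, at -1.06 and -0.85 in sham-operated and 0.12 and 0.03 in ADX libraries.

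Between noise-exposed and unexposed libraries 1 gene passed (0.00602%, 913 at an unadjusted p under 0.05). Fam180a, which encodes a predicted secreted protein, measured 10.4 to 13.6 CPM at night and 10 to 13.1 CPM by day in the 12 unexposed libraries, and 21.5 to 26.3 CPM at night and 11.9 to 16.6 CPM by day in the 12 exposed ones. The night exposed libraries stood above all others. The difference of the time effects was 0.66 (SE 0.10, adjusted p = 0.0496), and it passed in 4 of 24 fits without 1 library (adjusted p from 0.00799 to 0.185). Between ADX and sham-operated libraries 0 genes passed in edgeR (0%), with 1108 at an unadjusted p under 0.05, while DESeq2 called 11, Nr1d1 and Npas2 among them, and limma voom 0. Without night noise ADX a, the library with growth hormone transcripts and high Fkbp5, edgeR called 22 genes, among them Npas2 (1.08), Nr1d1 (0.90) and Tsc22d3 (-0.67). The clock genes had pooled differences by surgery of -0.45 for Cry1 (SE 0.12, adjusted p = 0.375) and -0.85 for Per2 (SE 0.24, adjusted p = 0.442), neither past the threshold.

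**Figure D5:**
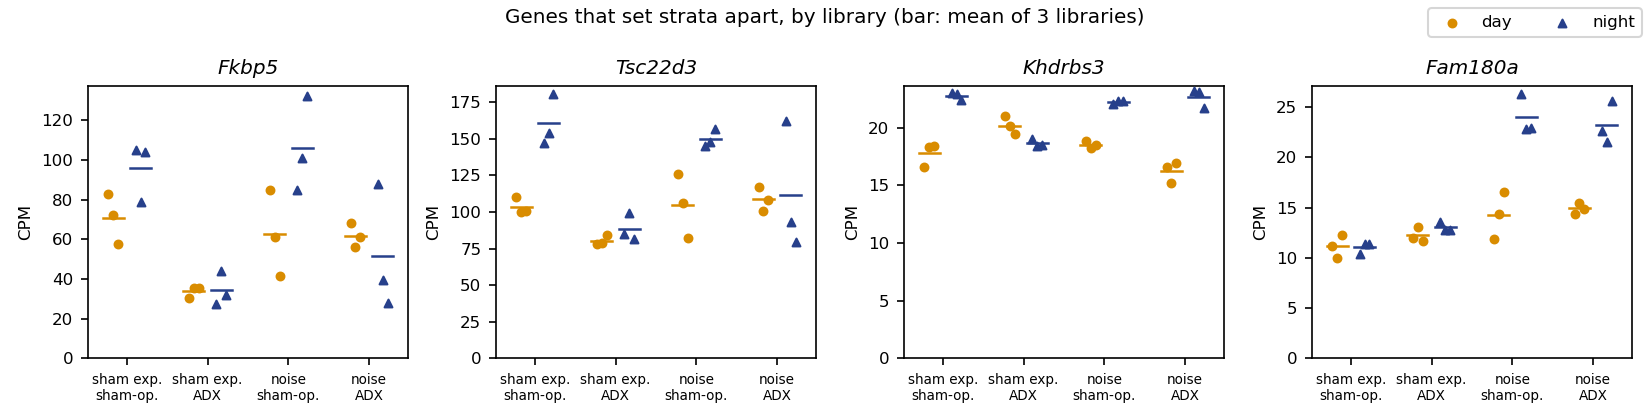
Level in CPM (vertical axes, from 0) of Fkbp5, Tsc22d3, Khdrbs3 and Fam180a in every library, by stratum and time (orange circles, day; blue triangles, night; bars, mean of 3 libraries). Fkbp5 and Tsc22d3 are low in the unexposed ADX libraries and high in 4 of the 6 noise-exposed libraries labelled ADX, Khdrbs3 is lower at night in unexposed ADX libraries, and Fam180a is high in the 6 night libraries with noise.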

How the data were processed

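The authors deposited one table of raw, unnormalized counts per gene symbol. Per the submitters' processing notes the tools were TopHat2 2.0.11 and HTSeq 0.6p1 on mm10; strand setting and annotation are not given in the sources used here. Of 23420 entries, 3340 had no count and 27 had names turned into dates (0.214% of counts, kept but unnamed). In R 4.3.3, edgeR 4.0.16 (filterByExpr, TMM, robust quasi-likelihood fit with 1 coefficient per group) tested the mean over 4 strata of night minus day, and differences between strata, two-sided, with Benjamini-Hochberg adjustment over 16607 genes and a threshold of 0.05. CPM are TMM-scaled, and SE is the log2 difference divided by the square root of F. The steps were tested on simulated data.

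Named genes were up to 15 per direction with the largest change (mean log2 CPM of at least 0, same sign in all strata, no blood, muscle, pituitary, cerebellar or sex-linked markers), up to 10 called members per list, up to 5 per difference test, the 10 with the smallest adjusted p, and fixed clock and hormone genes; others, such as Derl3, Oat and Nqo1, were picked with their values in view. Some genes that met these rules are not reported here. The members and the 34 lists (18 process, 16 marker) were chosen with earlier results of these data known. Positions are from GENCODE vM21. Alternatives were RLE factors, DESeq2 1.42.0, limma 3.58.1 voom, no filter, a block by letter, an additive model, subsets of libraries and leaving out each library.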

Additional observations from a re-analysis of the deposited data

Results flagged for a closer look

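The effect of time on Nr1d1 differed among the 4 strata with an adjusted p of 0.038 (edgeR quasi-likelihood test, Benjamini-Hochberg). All 12 night libraries lay below all 12 day libraries, with stratum values from -2.50 to -0.92. In 7 other fits the adjusted p ran from 5.08e-08 to 0.122, and 5 passed.

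For Khdrbs3 the same test gave an adjusted p of 0.038, with 1 stratum of opposite sign. It passed in 3 of 7 other fits, with adjusted p from 0.000149 to 0.122.

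The effect of time on Fam180a differed between noise-exposed and unexposed libraries with an adjusted p of 0.0496, close to the threshold. The 6 night libraries with noise lay above the 6 day libraries with noise. It passed in 2 of 7 other fits, with adjusted p from 7.11e-05 to 0.134.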

How the results depend on the processing

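The count of 998 genes by time ran from 698 (without night sham-exposed sham-operated c) to 1238 (without day noise ADX a) when 1 library was left out. It was 995 with RLE size factors, 1394 in DESeq2, 1463 in limma voom, 890 without a filter, 669 without the 3 libraries with pituitary or cerebellar transcripts, 917 in an additive model and 946 without the noise-exposed ADX stratum, an alternative chosen after seeing the data, which shared 655 genes with the 998. Fits of 12 libraries called 107 genes (unexposed), 104 (noise-exposed), 394 (sham-operated) and 46 (ADX), and such fits hold fewer samples. Whether the libraries' letters mark pairs could not be settled. Over 84 pairs of the same letter the deviations from group means correlated by -0.271 to 0.41 (median 0.0162), with 20 pairs over 0.1. Over 168 pairs of other letters they correlated by -0.318 to 0.212 (median -0.00909), with 30 pairs over 0.1. With the letters as a replicate block, 988 genes were called by time, 920 of them among the 998, 0 by time and noise, 0 by time and surgery and 0 among strata.

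Time by noise called 1 gene, and 0 with RLE factors, without a filter, without the 3 libraries or without the noise-exposed ADX stratum, 12 in DESeq2 and 2 in limma voom, and from 0 to 3 without 1 library. Time by surgery called 0, and 11 in DESeq2, 18 without the 3 libraries, 1 without the noise-exposed ADX stratum, and from 0 to 22 without 1 library (22 without night noise ADX a). Differences among strata numbered 2, and 108 in DESeq2, 11 in limma voom, 0 without a filter, 1 without the 3 libraries, 1 without the noise-exposed ADX stratum, and from 0 to 87 without 1 library (87 without day noise ADX a). The cause was not tested.

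Of 100 named genes called by time, 2 changed sign in any of 36 settings, both in the ADX libraries alone, Arntl at 0.0138 and Npas2 at 0.0708. Of genes not called, Cry2 (-0.00634) and Fkbp5 (-0.114) changed sign in the same libraries. Bdnf changed sign in unexposed libraries (-0.218) and without the noise-exposed ADX stratum (-0.038), and Clock in unexposed libraries (-0.00399), in sham-operated libraries (-0.0104) and without that stratum (-0.0117). Per1 turned to 0.147 in unexposed, 0.114 in sham-operated libraries and 0.119 without that stratum. Fos turned to 0.286 in noise-exposed, 0.42 in sham-operated libraries and 0.0700 without that stratum, and ran from -0.153 to 0.0204 without 1 library. Sgk1 turned to -0.0189 without the 3 libraries and -0.131 in ADX libraries. Bhlhe41, near 0 throughout, was -0.0394 in noise-exposed and -0.0121 in ADX libraries and ran from -0.0214 to 0.0217 without 1 library. Depth limits the lowest genes named, such as Mmp3 and Slc6a2, which are near 1 CPM.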
